A study of Mus musculus with 6 samples.

Results

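The 41 genes described here act in homologous recombination (HR) and the Fanconi anemia (FA) pathway, and they were taken by function, as a named list. For each gene, the ATACseq peaks within 2000 bp of one of its transcription start sites in GENCODE M21 (mm10) were followed. ATACseq uses a transposase that cuts accessible DNA, so a tall peak marks a stretch of chromatin that is open in many cells. The cells were GL261, a mouse glioma line, here stably carrying pEGFP-N1, a green fluorescent protein plasmid, in every group. They were held at 21% O2 (normoxia), at 1% O2 or at <0.1% O2, the 2 hypoxic groups for 16 h, and were fixed before lysis. Each group had 2 libraries, 6 in all, and nothing in the labels says whether replicates came from separate cultures, so p-values measure only the spread between these libraries. All 41 genes are among the 55341 genes of the GENCODE basic set, and 46 of the 41308 consensus peaks lay near their start sites. Of these 46, 43 were found in all 6 libraries and could be ranked, among 28432 such peaks in all and 12959 at promoters. Since a peak sums over all cells of a library, fewer cells with an open promoter and a less open promoter in each cell cannot be told apart.

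HR repairs a double-strand break by copying an intact sister chromatid. The ends are first sensed and resected to single strands, which RPA coats, and BRCA2 with its partners then prepares them for pairing with the sister strand. The FA pathway works on crosslinks between the strands of DNA, where a core complex attaches ubiquitin to the FANCD2-FANCI pair and nucleases and HR complete the repair. The kinases ATR and ATM and their partners signal the damage. Several of these genes are transcribed mostly in cycling cells.

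The peaks were typical promoter peaks in length and base composition. The median length of the peaks that represent the 41 genes was 968 bp, against 976 bp for all ranked promoter peaks, and the median GC content was 58.7% against 59.5%. A gene with several ranked peaks was represented by the one with the highest mean fold rank. In 38 of 41 genes that peak covered a start site of the gene. The exceptions were *Rad51b*, *Fancm* and *Slx4*. The peaks taken for *Rad51b* and *Fancm* lay at the start sites of the neighbours *Zfyve26* and *Fkbp3*, and the summit for *Slx4* lay at -2156 bp from its start, with the edge of the peak inside the window. Another protein-coding gene started within the window in 14 of 41 cases, and these peaks cannot be given to 1 gene alone. They were *Nbr1* beside *Brca1*, *Dctn5* beside *Palb2*, *Emc3* beside *Fancd2*, *Npat* beside *Atm* and *Ankrd49* beside *Mre11a*. *Tex14* lay beside *Rad51c*, *Fndc8* beside *Rad51d*, *Zfyve21* beside *Xrcc3*, *Purg* beside *Wrn* and *Mospd2* beside *Fancb*. *Smyd4* lay beside *Rpa1*, and *Umad1* and *Gm45062* beside *Rpa3*, the rest being *Zfyve26* and *Fkbp3* above. The summit for *Brca1* lay at -802 bp, toward *Nbr1*.

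Promoter sequences are shown for the 4 largest falls of summit pileup at <0.1% O2 among genes with a RefSeq window, for *Xrcc3* and *Fance*, which rose and whose peaks cover their own start sites, and for *Bard1*, which did not pass the test. The stretches run from 200 bases before the RefSeq start site to the 30th base of the transcript, are written 5′ to 3′ along the gene and come from GRCm38.p6. RefSeq and GENCODE starts differ by -174 bases at *Bard1* and -118 at *Fancl*. Capitals mark matches, on either strand, to the motifs searched, TTTCCCGC or TTTGGCGC (E2F), TTTGAA (CHR), CCAAT (NF-Y), CGCATGCG (NRF1), CCGGAAGT (ETS), TGACGTCA (CREB) and ACGTG or GCGTG (the core of HIF sites). *Brca2* lies at chr5:150522421-150522650 on the plus strand, *Atrip* at chr9:109074095-109074324 on the minus strand, *Fancf* at chr7:51862238-51862467 on the minus strand and *Fancl* at chr11:26386884-26387113 on the plus strand. *Xrcc3* lies at chr12:111813850-111814079 on the minus strand, *Fance* at chr17:28313330-28313559 on the plus strand and *Bard1* at chr1:71102943-71103172 on the minus strand.
Brca2: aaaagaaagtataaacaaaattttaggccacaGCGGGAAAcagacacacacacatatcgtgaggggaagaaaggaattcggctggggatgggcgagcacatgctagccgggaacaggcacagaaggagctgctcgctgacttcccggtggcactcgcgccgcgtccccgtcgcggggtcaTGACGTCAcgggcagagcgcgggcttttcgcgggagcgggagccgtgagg
Atrip: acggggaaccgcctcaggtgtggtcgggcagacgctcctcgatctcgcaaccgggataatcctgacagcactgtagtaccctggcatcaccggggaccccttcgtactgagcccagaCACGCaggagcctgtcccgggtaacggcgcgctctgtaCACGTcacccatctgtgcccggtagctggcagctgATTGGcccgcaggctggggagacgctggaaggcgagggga
Fancf: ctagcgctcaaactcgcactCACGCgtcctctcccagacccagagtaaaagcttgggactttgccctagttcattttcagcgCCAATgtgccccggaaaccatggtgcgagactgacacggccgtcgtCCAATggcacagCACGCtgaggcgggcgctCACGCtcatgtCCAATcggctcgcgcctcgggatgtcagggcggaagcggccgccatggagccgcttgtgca
Fancl: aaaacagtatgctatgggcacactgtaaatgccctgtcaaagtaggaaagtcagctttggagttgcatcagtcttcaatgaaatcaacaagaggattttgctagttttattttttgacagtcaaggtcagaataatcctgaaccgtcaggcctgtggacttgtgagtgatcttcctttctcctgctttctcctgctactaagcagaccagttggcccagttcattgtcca
Xrcc3: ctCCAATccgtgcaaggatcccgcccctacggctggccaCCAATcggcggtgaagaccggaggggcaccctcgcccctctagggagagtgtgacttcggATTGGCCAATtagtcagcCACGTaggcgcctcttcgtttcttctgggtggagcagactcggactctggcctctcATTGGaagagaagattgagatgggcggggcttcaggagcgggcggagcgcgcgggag
Fance: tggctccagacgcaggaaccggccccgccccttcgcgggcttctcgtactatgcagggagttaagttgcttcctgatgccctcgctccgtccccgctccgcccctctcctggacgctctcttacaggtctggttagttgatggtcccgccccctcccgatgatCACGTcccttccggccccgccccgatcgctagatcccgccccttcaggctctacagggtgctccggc
Bard1: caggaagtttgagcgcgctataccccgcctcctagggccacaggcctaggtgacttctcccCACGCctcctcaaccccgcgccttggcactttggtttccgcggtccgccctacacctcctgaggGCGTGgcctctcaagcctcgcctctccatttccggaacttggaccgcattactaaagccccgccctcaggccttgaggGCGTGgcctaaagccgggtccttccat
The *Brca2* promoter holds an E2F match at -168 to -161 from the RefSeq start and a CREB match at -20 to -13. That of *Xrcc3* holds 5 NF-Y matches in the stretch shown, and that of *Fancf* 3. A match is a description of the letters and not evidence of binding. No letters of these motifs were found in the *Fancl* stretch, and the E2F and CHR matches of *Bard1* lie upstream of the stretch shown.

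Over the 32 members with a RefSeq window of 300 bases, 21 (65.6%) held an NF-Y match, against 38.9% of the 11490 RefSeq promoters whose start lay in a ranked peak and 37.4% of all 32851. HIF core letters were in 22 members (68.8%), close to the 66.7% of promoters in a ranked peak. E2F matches were in 3 members (9.38% against 3.26%), *Brca2*, *Bard1* and *Fancg*. CHR letters were in 1 member (3.12% against 10.6%), NRF1 in 2 (6.25% against 4.48%), ETS in 3 (9.38% against 9.42%) and CREB in 2 (6.25% against 3.52%). Among members lower at <0.1% O2, 8 of 16 with a window held NF-Y letters, as did 4 of 4 that were higher and 9 of 12 that were not called. The calls of *Rad51b*, *Fancm* and *Slx4* come from peaks outside their windows. For these genes the letters and the call belong to different stretches of DNA. No test was made of these shares. *Rad51d*, *Xrcc2*, *Rad54b*, *Rad50*, *Nbn*, *Rbbp8*, *Exo1*, *Wrn* and *Fancd2* had no entry.

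**Figure D1:**
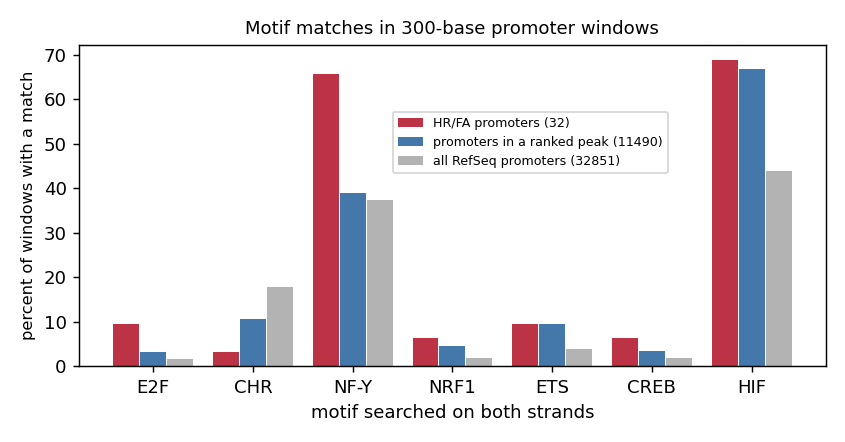
Share of 300-base promoter windows with at least 1 match to each motif (percent, vertical axis) for 32 HR and FA genes, 11490 promoters in a ranked peak and 32851 RefSeq promoters. NF-Y letters were found in 65.6% of the HR and FA windows and in 38.9% of those in a ranked peak.

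Reads per library are not given in the peak lists, but the fold (column 7) and p-value of each peak fix the number of fragments at its summit, the pileup, and its local background. Both were recovered for 100% of peaks in every library. The lists held 33006 to 43554 peaks, and the mean fragment coverage of the genome ran from 2.16 to 3.35, lowest in both 21% O2 libraries. The pileup of each peak was divided by the median over the ranked peaks of the same library, 61 to 108 fragments, and this relative pileup is the level given for each gene below. A change is therefore relative to the median peak. Its log2 change was tested with limma across all 28432 ranked peaks, with Benjamini-Hochberg adjustment. The fold rank is the percentile rank of the authors' fold among the same peaks, and a fall or rise in it was called where neither hypoxic library overlapped the normoxic range, both on the same side of it, and the mean moved by 10 percentile points or more. An exact permutation test of 2 libraries against 2 cannot go below 0.33, so fold ranks have no p. Of the 8 glial and neural stem cell markers checked, 7 had a promoter peak in all 6 libraries, as had all 8 hypoxia-inducible genes. Of 8 markers of other cell types, 6 had none in any library, while *Col1a1* had one in all 6 and *Pecam1* in 5.

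No HR or FA gene lost its last promoter peak. All 41 genes had a promoter peak in each of the 6 libraries, where 11618 of the 12775 protein-coding genes with a promoter peak in any library had one in all. With the same number of top peaks taken in every library, 40 of 41 were found in all, and with a window of 500 bp it was again 40, *Slx4* being without a peak. Of the 46 peaks, 3 were additional, unranked ones. The one at *Wrn* was in both <0.1% O2 libraries alone, with pileups of 39 and 36 and a -log10 q of 4.51 and 3.86. Peaks were called at a q of 0.001. The one at *Fanca* was in 4 libraries and the one at *Fanci* in 3. At 21% O2 the members were tall, with a median relative pileup of 1.79 and 1.75 in the 2 libraries against 1.43 and 1.46 for all promoter peaks. The medians were 1.56 and 1.51 at 1% O2, and 1.33 and 1.41 at <0.1% O2, where those of all promoter peaks were 1.35 and 1.34, then 1.19 and 1.22. Within the group the levels at 21% O2 ran from 0.62 for *Fancd2* in both libraries to 3.87 and 4.99 for *Atm*.

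**Figure D2:**
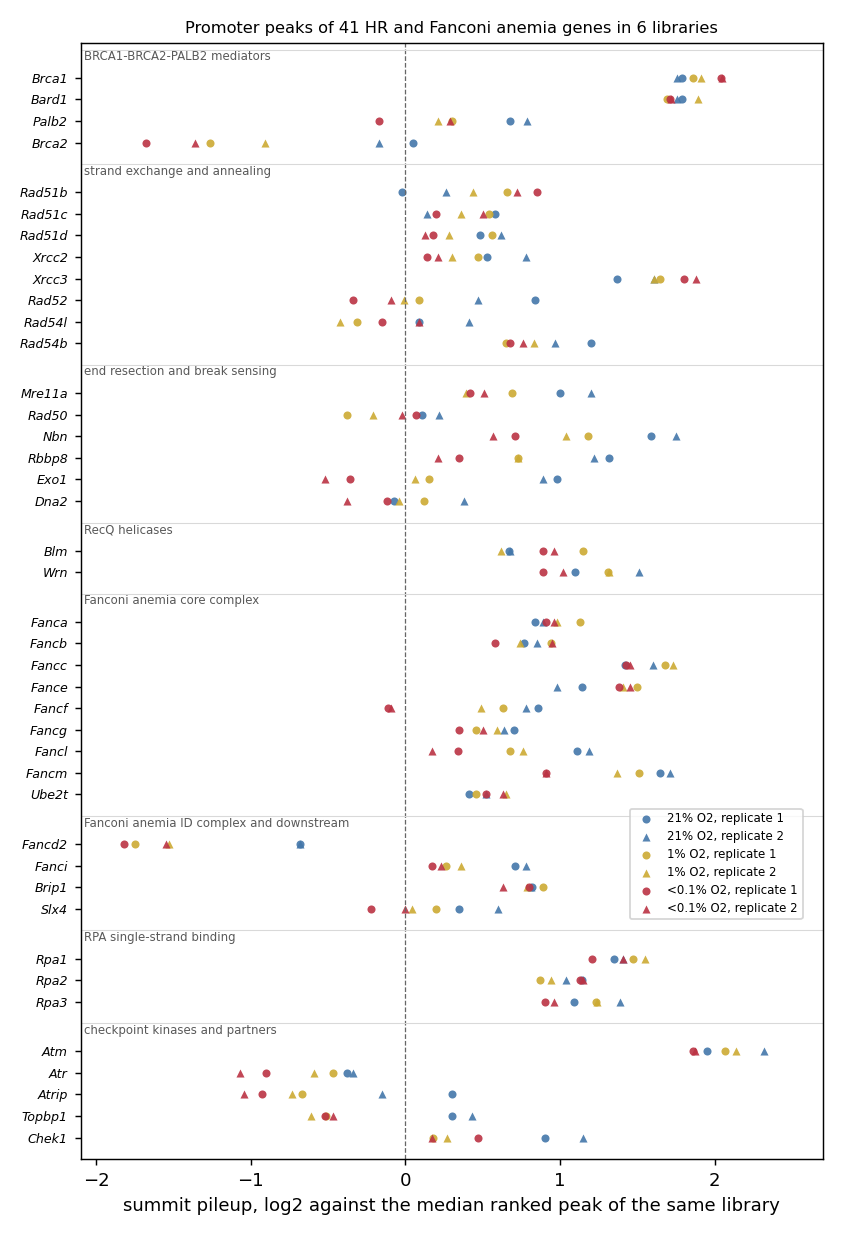
Summit pileup of the peak representing each of the 41 genes (rows, by role) as log2 against the median ranked peak of the same library (horizontal axis). Each point is 1 library, with circles for replicate 1 and triangles for replicate 2, and the dashed line is the median ranked peak. The <0.1% O2 points of *Brca2*, *Exo1*, *Nbn* and *Fancf* all lie to the left of their 21% O2 points.

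The comparison of each hypoxia level with normoxia asks whether promoters of this pathway lose accessibility. At <0.1% O2, 24 of 41 members (58.5%) were lower and 4 (9.76%) higher by limma, while the shares over all ranked promoter peaks were 38.5% and 13.8%. At 1% O2, 16 members (39.0%) were lower and 2 (4.88%) higher, against 22.0% and 12.9% of promoter peaks. The median log2 change of the members was -0.18 at 1% O2 and -0.36 at <0.1% O2, and that of all promoter peaks -0.07 and -0.19. Ranked peaks away from promoters had medians of 0.00 and 0.17. At both levels 14 members (34.1%) were lower, as were 18.7% of promoter peaks. Both contrasts share the same normoxic libraries, so their overlap is not independent. Scaling by genome coverage in place of the median peak moved the median of all ranked peaks by 0.167 at 1% O2 and by -0.165 at <0.1% O2. Under that scaling 5 members were lower and 2 higher at 1% O2, and 20 were lower and 0 higher at <0.1% O2, by limma at an adjusted p below 0.05. Of all promoter peaks, 3.18% were then lower and 9.03% higher at 1% O2, and 34.6% and 2.89% at <0.1% O2. At an unadjusted p below 0.05, 1 was higher at <0.1% O2. The calls lost under it at 1% O2 were the falls of *Palb2*, *Rad52*, *Rad54l*, *Rad54b*, *Mre11a*, *Rad50*, *Nbn*, *Rbbp8*, *Fancl*, *Fanci* and *Atrip*. At <0.1% O2 they were the falls of *Rad54b*, *Wrn*, *Rpa3* and *Atm* and all 4 rises. With quantile normalization 15 were lower and 7 higher at 1% O2, beside 17.9% and 17.1% of promoter peaks.

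By fold rank, 21 members (51.2%) were lower and 1 (2.44%) higher at <0.1% O2, where 26.5% and 12.0% of promoter peaks were called. At 1% O2, 10 (24.4%) were lower and 1 (2.44%), *Rad51c*, higher, against 16.5% and 11.9%. With the pileup ranked in place of the fold, *Rad51c* had 4.61 points and was not called. The median fold rank change was -10.8 points at <0.1% O2 and -3.82 at 1% O2, where all promoter peaks had -2.52 and -0.961. With ranks taken within each library's whole peak list, the medians of the members were -5.41 and -0.776. That of all promoter peaks is not given under such ranks. Both measures called 15 of the members lower at <0.1% O2. The share of all promoter peaks called lower by both was not counted. *Blm*, *Fanca*, *Fancg*, *Rad50*, *Rad54l* and *Ube2t* were lower by fold rank alone, and *Atm*, *Dna2*, *Fancf*, *Fanci*, *Fancl*, *Mre11a*, *Rad54b*, *Rpa3* and *Xrcc2* by pileup alone. The fold divides by a local background, which moved too. Its median over the members was 3.56 and 3.90 times the genome coverage at 21% O2 and 3.17 and 2.75 times at <0.1% O2, and over all promoter peaks 3.6 and 4.1, then 3.08 and 2.83. The part of the background in these fold ranks was not tested. When the log2 fold was fitted in place of the pileup, 11 of the 24 lower calls and 1 of the 4 higher calls were kept, and 9.55% and 3.07% of promoter peaks were called. The falls lost were those of *Palb2*, *Rad51d*, *Xrcc2*, *Rad54b*, *Mre11a*, *Dna2*, *Wrn*, *Fancf*, *Fanci*, *Rpa3*, *Atm*, *Atrip* and *Chek1*, and the rises those of *Brca1*, *Rad51b* and *Fance*. At 1% O2 it was 1 of the 16 lower calls, that of *Topbp1*, and neither rise was kept, with 1.67% and 1.66% of promoter peaks called.

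**Figure D3:**
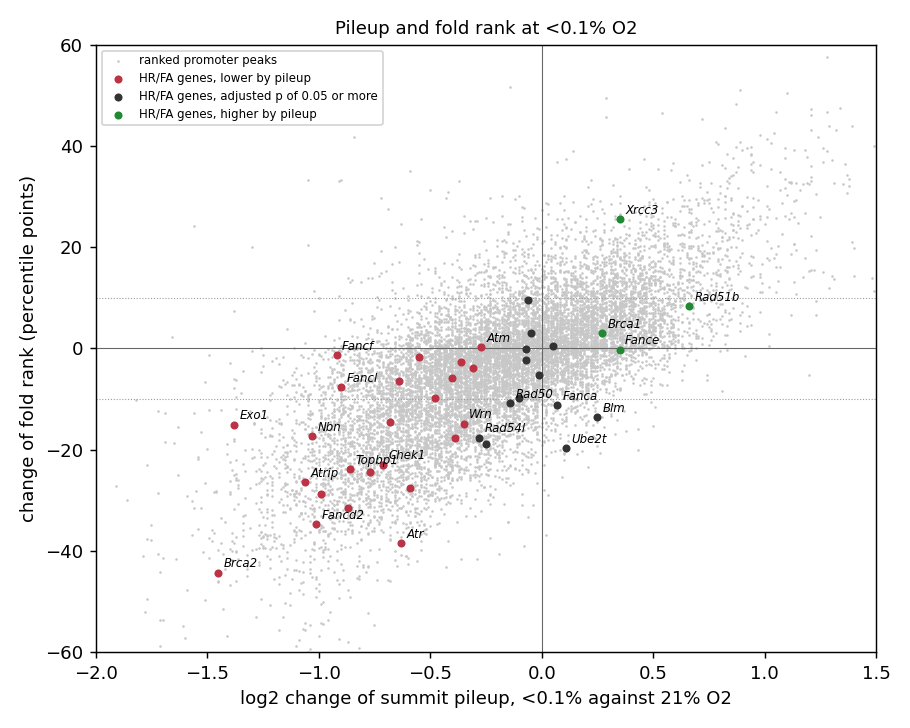
Log2 change of the summit pileup (horizontal axis) against the change of fold rank in percentile points (vertical axis) at <0.1% against 21% O2. Grey points are ranked promoter peaks, 36 of which lie outside the plotted range, coloured points are the 41 genes by their limma call, and the dotted lines mark 10 points. *Brca2* lies lowest among the members on both axes, and *Blm* and *Ube2t* lie right of 0 on the pileup axis but below -10 points in rank.

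Members were also set beside the other promoter peaks whose mean rank over the 6 libraries lay within 2.5 points of their own, 380 to 914 of them by fold rank and 394 to 916 by pileup rank. At <0.1% O2, 31 of 41 members lay below the median fold rank change of such peaks, with a median difference of -8.50 points. By log2 pileup 24 of 41 lay below, with a median difference of -0.14. At 1% O2 the figures were 28 of 41 by fold rank and 26 of 41 by pileup, with median differences of -3.59 points and -0.12. Since each member is set beside a median, an even split above and below is the reference. The counts by pileup are not far from it. These are descriptions with no test.

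*Brca2*, a mediator of strand exchange, had the lowest fitted change of the 41 genes at <0.1% O2, within its error of that of *Exo1*, and its partner *Palb2* was also lower, while *Brca1* rose slightly and *Bard1*, the partner of BRCA1 in a ubiquitin ligase, did not pass the test. The *Brca2* promoter, whose sequence is shown above, had a relative pileup of 1.03 and 0.89 at 21% O2, 0.42 and 0.53 at 1% O2, then 0.31 and 0.39 at <0.1% O2. No hypoxic library reached the normoxic ones. The log2 change was -1.03 ± 0.20 (SE, n = 2 libraries a group here and throughout) at 1% O2 (limma adjusted p = 1.4e-04) and -1.45 ± 0.20 at <0.1% O2 (adjusted p = 3.7e-07). In fragments these were 63 and 71 at 21% O2, 45 and 52 at 1% O2, then 31 and 32 at <0.1% O2, where the exact Poisson 95% interval of a count of 31 is 21.1 to 44.0. Such intervals cover counting error only. The fold rank of *Brca2* went from 67.6 and 60.9 at 21% O2 through 53.0 and 56.4 to 19.0 and 20.9 at <0.1% O2, a change of -44.3 points where promoter peaks of like rank had a median of -6.06.

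*Palb2*, which bridges BRCA1 and BRCA2, had 1.61 and 1.72 at 21% O2, 1.23 and 1.15 at 1% O2, then 0.89 and 1.22 at <0.1% O2. Its log2 change was -0.48 ± 0.14 at 1% O2 (adjusted p = 0.007) and -0.68 ± 0.14 at <0.1% O2 (adjusted p = 1.6e-04), and the former had an adjusted p of 0.067 without the second 1% O2 library and 0.34 under genome coverage scaling. For *Brca1* the relative pileup was 3.46 and 3.39 at 21% O2, 3.62 and 3.76 at 1% O2, then 4.10 and 4.15 at <0.1% O2. The groups did not overlap, and the log2 change was 0.11 ± 0.09 at 1% O2 (adjusted p = 0.39) and 0.27 ± 0.09 at <0.1% O2 (adjusted p = 0.018). Leaving out either <0.1% O2 library ended that call (adjusted p of 0.074 and 0.092), as did genome coverage scaling (0.10, adjusted p = 0.75), and the peak is shared with *Nbr1*. *Bard1* changed by 0.01 ± 0.10 and -0.06 ± 0.10 (adjusted p of 0.94 and 0.64).

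Among the strand exchange and annealing genes, 4 of 8 were lower and 2 higher at <0.1% O2, and 3 were lower and 1 higher at 1% O2. With 8 genes these counts are not far from the promoter-wide shares, 38.5% and 13.8%, then 22.0% and 12.9%, and were not tested against them. *Rad52*, a single-strand annealing protein, fell most at <0.1% O2. It had 1.79 and 1.39 at 21% O2, 1.06 and 0.99 at 1% O2, then 0.79 and 0.94 at <0.1% O2. The log2 change was -0.62 ± 0.15 at 1% O2 (adjusted p = 0.0012; 0.052 without the first 21% O2 library, 0.15 under genome coverage scaling) and -0.87 ± 0.15 at <0.1% O2 (adjusted p = 9.1e-06). *Rad51d* and *Xrcc2*, which act in 1 complex, were lower at <0.1% O2 by -0.39 ± 0.13 and -0.48 ± 0.13 (adjusted p of 0.015 and 0.0034). Each call was lost without the second 21% O2 library (adjusted p of 0.10 and 0.066), and that of *Rad51d* also without either <0.1% O2 library (0.052 and 0.081) and with the GC trend subtracted (-0.22, adjusted p = 0.25). *Rad54b*, a DNA translocase of HR, changed by -0.35 ± 0.12 and -0.36 ± 0.12 at the 2 levels (adjusted p of 0.020 and 0.011). At 1% O2 the call was lost without the first 21% O2 library (0.19) or the first 1% O2 library (0.21), and under quantile (0.090), cyclic loess (0.064) and genome coverage normalization (0.62). At <0.1% O2 it was lost without the first 21% O2 library (adjusted p = 0.14) and without the first <0.1% O2 library (0.088). Its relative *Rad54l* was lower at 1% O2, with -0.62 ± 0.16 (adjusted p = 0.0019; 0.053 without the second 21% O2 library, 0.16 under genome coverage scaling), and had -0.28 ± 0.16 at <0.1% O2 (adjusted p = 0.13). The difference between these levels was 0.33 ± 0.16 (adjusted p = 0.12).

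*Rad51b* and *Xrcc3* of the same group went the other way. The peaks of both genes lie beside a neighbour. The peak taken for *Rad51b* had 0.98 and 1.2 at 21% O2, 1.58 and 1.36 at 1% O2, then 1.80 and 1.65 at <0.1% O2, all hypoxic libraries above both normoxic ones. Its log2 change was 0.43 ± 0.13 at 1% O2 (adjusted p = 0.0099) and 0.66 ± 0.13 at <0.1% O2 (adjusted p = 9.5e-05), the largest rise of the 41 genes. The call at 1% O2 was lost without the first 21% O2 library (adjusted p = 0.13) or the first 1% O2 library (0.16), and that at <0.1% O2 under genome coverage scaling (0.50, adjusted p = 0.070). That peak lies at the *Zfyve26* start. The smaller peak over the *Rad51b* start itself, at chr12:79297188-79297584, changed by 0.32 ± 0.16 and 0.20 ± 0.16 (adjusted p of 0.12 and 0.31). In the first 21% O2 library and the second 1% O2 library 1 broad peak spans both, so the values there are shared. *Xrcc3*, whose protein partners that of *Rad51c*, is shown above with its CCAAT letters. It had 2.59 and 3.06 at 21% O2, 3.14 and 3.06 at 1% O2, then 3.47 and 3.68 at <0.1% O2. *Xrcc3* rose by 0.35 ± 0.10 at <0.1% O2 (adjusted p = 0.0052), was the member called higher there by fold rank (25.5 points, but 5.42 with the pileup ranked and 7.39 with -log10 q ranked, neither called), and shares its peak with *Zfyve21*. Without the first 21% O2 library the adjusted p was 0.088, without the second <0.1% O2 library 0.068, and under genome coverage scaling 0.56. *Rad51c* changed by 0.09 ± 0.14 and -0.01 ± 0.14 (adjusted p of 0.65 and 0.98).

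The resection and break-sensing genes were lower in 5 of 6 cases at each level, *Dna2* being the exception at 1% O2 and *Rad50* at <0.1% O2. The promoter-wide shares were 22.0% and 38.5%, and no group of members was tested against them. *Exo1*, the exonuclease of long-range resection, had 1.97 and 1.85 at 21% O2, 1.11 and 1.04 at 1% O2, then 0.78 and 0.70 at <0.1% O2. The 3 groups were apart from each other, with log2 changes of -0.83 ± 0.14 at 1% O2 (adjusted p = 1.4e-05) and -1.38 ± 0.14 at <0.1% O2 (adjusted p = 6.2e-10). Its fold rank went from 99.1 and 98.5 to 82.4 and 85.1, and its local background went from 2.98 and 3.17 to 1.35 and 1.00 times the genome coverage. *Nbn*, the regulatory subunit of the MRE11-RAD50-NBN complex, had 3.02 and 3.36 at 21% O2, 2.27 and 2.05 at 1% O2, then 1.64 and 1.49 at <0.1% O2. It fell by 0.56 ± 0.11 and then by 1.03 ± 0.11 on the log2 scale (adjusted p of 1.2e-04 and 2.0e-09), and the former was -0.40 with an adjusted p of 0.20 under genome coverage scaling. *Rbbp8*, whose protein CtIP starts resection with that complex, had 2.49 and 2.32, then 1.66 and 1.65, then 1.27 and 1.16. Its log2 changes were -0.54 ± 0.12 and -0.99 ± 0.12 (adjusted p of 4.2e-04 and 1.8e-08), and the former was -0.37 with an adjusted p of 0.24 under that scaling.

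The other subunits of the NBN complex had smaller changes at <0.1% O2, a difference that was not tested. *Mre11a*, the nuclease, had 2.00 and 2.30 at 21% O2, 1.61 and 1.31 at 1% O2, then 1.33 and 1.43 at <0.1% O2, with log2 changes of -0.56 ± 0.13 and -0.64 ± 0.13 (adjusted p of 5.4e-04 and 7.8e-05). The call of *Mre11a* at 1% O2 was lost under genome coverage scaling (-0.40, adjusted p = 0.20), and both calls on log2 fold (-0.12 at each level, adjusted p of 0.45 and 0.43). *Rad50*, the ATPase, had 1.08 and 1.16, then 0.77 and 0.87, then 1.05 and 0.99. It was lower at 1% O2, by -0.46 ± 0.15 (adjusted p = 0.015; 0.080 without the second 21% O2 library, 0.14 without the first 1% O2 library, 0.40 under genome coverage scaling and 0.057 with the GC trend subtracted), and at <0.1% O2 it had -0.14 ± 0.15 (adjusted p = 0.47). *Dna2*, a second resection nuclease, changed by -0.12 ± 0.16 and -0.40 ± 0.16 (adjusted p of 0.60 and 0.036). The latter call was lost without the second 21% O2 library (adjusted p = 0.46) or the second <0.1% O2 library (0.28), and with the GC trend subtracted (-0.18, adjusted p = 0.45).

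**Figure D4:**
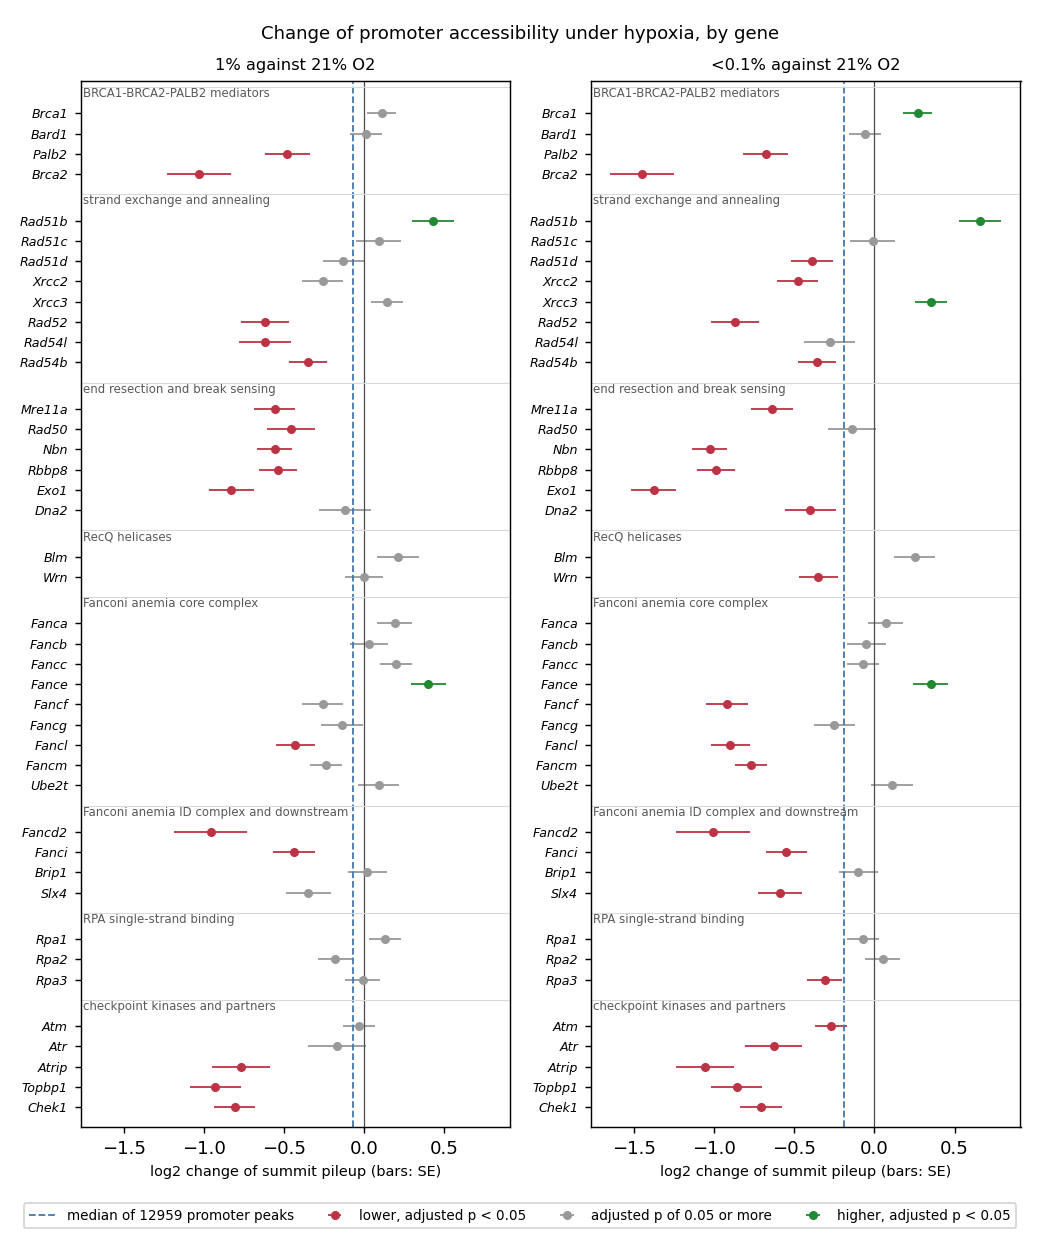
Log2 change of the relative summit pileup with its SE (horizontal axes) for each gene (rows, by role) at 1% O2 (left) and <0.1% O2 (right) against 21% O2. Red and green mark an adjusted p below 0.05, and the dashed line is the median of the 12959 ranked promoter peaks, -0.07 and -0.19. The checkpoint genes *Topbp1* and *Chek1* sit at about the same place in both panels, whereas *Fancf* lies at -0.26 at 1% O2 and at -0.92 at <0.1% O2.

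The RecQ helicases, which unwind recombination intermediates, were called lower in 1 of 2 cases at <0.1% O2, beside 38.5% of all promoter peaks. *Blm* had 1.59 and 1.60 at 21% O2, 2.21 and 1.54 at 1% O2, then 1.86 and 1.94 at <0.1% O2. Its log2 change was 0.21 ± 0.13 and 0.25 ± 0.13 (adjusted p of 0.21 and 0.11), yet its fold rank was called lower at <0.1% O2 (-13.6 points, but 9.08 with the pileup ranked), and its background went from 3.10 and 3.13 to 3.82 and 3.78 times the genome coverage. *Wrn* changed by 0.00 ± 0.12 at 1% O2 and by -0.35 ± 0.12 at <0.1% O2 (adjusted p of 0.98 and 0.012). The *Wrn* call was lost without the second 21% O2 library (-0.15, adjusted p = 0.35) or the first <0.1% O2 library (adjusted p = 0.12), and with the GC trend subtracted the change was 0.06.

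In the FA core complex 3 of 9 genes were lower and 1 higher at <0.1% O2, and 1 was lower and 1 higher at 1% O2. The shares lower exceeded neither the 38.5% of all promoter peaks at <0.1% O2 nor the 22.0% at 1% O2, where 13.8% and 12.9% were higher. *Fancf*, an adaptor of the core complex, had 1.82 and 1.71 at 21% O2, 1.55 and 1.41 at 1% O2, then 0.93 and 0.94 at <0.1% O2. Its log2 change was -0.26 ± 0.13 at 1% O2 (adjusted p = 0.11), -0.92 ± 0.13 at <0.1% O2 (adjusted p = 3.7e-07) and -0.66 ± 0.13 between the levels (adjusted p = 2.7e-04). That difference did not pass with the GC trend subtracted (-0.34, adjusted p = 0.14) or on log2 fold (0.99), where the fall at <0.1% O2 was lost too (-0.02, adjusted p = 0.93). Its fold rank moved by -1.28 points, beside a background that went from 3.61 and 4.36 to 1.92 and 1.51 times the coverage. *Fancl*, the ubiquitin ligase of the complex, had 2.16 and 2.27, then 1.60 and 1.69, then 1.26 and 1.12. The log2 changes of *Fancl* were -0.43 ± 0.12 (adjusted p = 0.0047; 0.058 without the first 1% O2 library, 0.44 under genome coverage scaling) and -0.90 ± 0.12 (adjusted p = 1.5e-07). *Fancm*, a translocase that anchors the complex on DNA, fell by 0.77 ± 0.10 on the log2 scale at <0.1% O2 (adjusted p = 2.0e-07). Its own start-site peak at chr12:65075293-65075916 also fell by 0.77 ± 0.16 (adjusted p = 1.6e-04).

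*Fance* rose at both levels. It had 2.2 and 1.97 at 21% O2, 2.83 and 2.66 at 1% O2, then 2.60 and 2.73 at <0.1% O2, with log2 changes of 0.40 ± 0.11 and 0.35 ± 0.11 (adjusted p of 0.0029 and 0.0056). The call at 1% O2 was lost without the first 1% O2 library (adjusted p = 0.054), and that at <0.1% O2 without the second 21% O2 library (0.051), without the second <0.1% O2 library (0.062) and under genome coverage scaling (0.19, adjusted p = 0.54). *Fanca*, the gene most often mutated in Fanconi anemia, had 1.79 and 1.85, then 2.19 and 1.97, then 1.88 and 1.94. Its log2 changes of 0.19 ± 0.11 and 0.07 ± 0.11 did not pass the test (adjusted p of 0.18 and 0.64). *Fancb*, *Fancc*, *Fancg* and *Ube2t*, the last encoding the ubiquitin-conjugating enzyme, lay between -0.25 and 0.11 at <0.1% O2 with adjusted p of 0.10 or more.

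Of the ID complex and downstream genes, 3 of 4 were lower at <0.1% O2 and 2 at 1% O2, few genes to set beside promoter-wide shares of 38.5% and 22.0%. *Fancd2*, the core target of FA ubiquitination, had the lowest peak of the members at 21% O2, with 38 and 50 fragments at 21% O2, 32 and 34 at 1% O2 and 28 in both <0.1% O2 libraries. Its relative pileup was 0.62 in both 21% O2 libraries, 0.30 and 0.35 at 1% O2, then 0.28 and 0.34 at <0.1% O2. Its fitted fall was about as large at 1% O2 as at <0.1% O2, with log2 changes of -0.96 ± 0.23 and -1.01 ± 0.23 (adjusted p of 9.2e-04 and 3.7e-04) and a difference between the levels of -0.05 ± 0.23 (adjusted p = 0.91). Its partner *Fanci* changed by -0.44 ± 0.13 and -0.55 ± 0.13 (adjusted p of 0.0075 and 6.3e-04), and the former had an adjusted p of 0.082 without the first 1% O2 library and 0.43 under genome coverage scaling. The *Fanci* peak had a fold rank of 0.656 to 2.74 in all 6 libraries, beside a background of 8.14 to 13.6 times the coverage. *Slx4*, a scaffold for nucleases, was lower at <0.1% O2 by -0.59 ± 0.14 (adjusted p = 0.0011). Its peak does not cover its start, and with a window of 500 bp it had none. *Brip1*, a helicase bound to BRCA1, had 0.02 ± 0.12 and -0.10 ± 0.12 (adjusted p of 0.91 and 0.50).

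The RPA genes, which coat single strands in replication and repair alike, were called lower in 1 of 3 cases at <0.1% O2, a share not above the 38.5% of all promoter peaks. *Rpa1* had 2.56 and 2.66 at 21% O2, 2.78 and 2.93 at 1% O2, then 2.31 and 2.66 at <0.1% O2, with log2 changes of 0.13 ± 0.10 and -0.07 ± 0.10 (adjusted p of 0.35 and 0.59). *Rpa2* had -0.18 ± 0.11 and 0.05 ± 0.11 (adjusted p of 0.19 and 0.74). *Rpa3* was lower at <0.1% O2 by -0.31 ± 0.11 (adjusted p = 0.022), a call lost without any of the second 21% O2 library (0.31), the first <0.1% O2 library (0.12) or the second (0.059). It was also lost with the GC trend subtracted (-0.10, adjusted p = 0.54) and under quantile (0.072) and cyclic loess normalization (0.058).

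All 5 checkpoint genes were lower at <0.1% O2, and 3 of them at 1% O2, beside 38.5% and 22.0% of all promoter peaks. *Atrip*, the partner that brings ATR to RPA-coated strands, had 1.23 and 0.90 at 21% O2, 0.63 and 0.60 at 1% O2, then 0.53 and 0.49 at <0.1% O2. Its log2 changes were -0.77 ± 0.18 and -1.06 ± 0.18 (adjusted p of 0.0010 and 1.2e-05), the former with 0.053 under genome coverage scaling. *Atr* itself had 0.77 and 0.79 at 21% O2, 0.72 and 0.66 at 1% O2, then 0.54 and 0.48 at <0.1% O2, with -0.17 ± 0.18 and -0.63 ± 0.18 (adjusted p of 0.49 and 0.0046; 0.054 for the latter without the second <0.1% O2 library). In fold rank *Atr* was called lower at both levels, with -22.4 and -38.5 points, and with the pileup ranked it was not called at 1% O2 (-6.31 points).

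*Topbp1*, an activator of ATR, had 1.23 and 1.35, then 0.70 and 0.65, then 0.70 and 0.72. It fell at 1% O2 by 0.93 ± 0.16 on the log2 scale (adjusted p = 1.9e-05) and at <0.1% O2 by 0.86 ± 0.16 (adjusted p = 3.1e-05). *Chek1*, the kinase downstream of ATR, showed the same course, with 1.87 and 2.22 at 21% O2, 1.13 and 1.2 at 1% O2, then 1.38 and 1.12 at <0.1% O2. Its log2 changes were -0.81 ± 0.13 and -0.71 ± 0.13 (adjusted p of 9.5e-06 and 3.5e-05), and the hypoxia levels differed by 0.10 ± 0.13 (adjusted p = 0.65). *Atm*, the kinase that answers double-strand breaks, had the tallest peak at 21% O2, with 3.87 and 4.99 at 21% O2, 4.19 and 4.40 at 1% O2, then 3.63 and 3.65 at <0.1% O2. Its change at <0.1% O2 was -0.27 ± 0.10 (adjusted p = 0.027), but -0.09 without the second 21% O2 library (adjusted p = 0.50) and -0.02 with the GC trend subtracted (adjusted p = 0.92), and leaving out either <0.1% O2 library ended the call too (adjusted p of 0.11 and 0.10).

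Between the 2 hypoxia levels, 8 of 41 members (19.5%) were lower at <0.1% O2 than at 1% O2, close to the 18.5% of all promoter peaks. They were *Exo1*, *Nbn*, *Rbbp8*, *Wrn*, *Fancf*, *Fancl*, *Fancm* and *Rpa3*. Leaving out each library in turn, only *Fancf* and *Fancm* were called every time, although the peak over the *Fancm* start itself was not called (-0.38 ± 0.16, adjusted p = 0.080), and without the first 1% O2 or the second <0.1% O2 library the count was 3. None of the 41 was higher by limma, against 4.97% of promoter peaks, and at an unadjusted p below 0.05 the number was 4. The median log2 change was -0.12 for members and -0.13 for all promoter peaks. With the GC trend subtracted 1 member was lower and 2 higher (2.92% and 5.22% of promoter peaks), and of the 8 only *Fancl* was kept. On log2 fold none of the 8 was kept, and under genome coverage scaling 16 were lower, with 33.9% of promoter peaks.

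A further list of 57 HR and FA genes outside these 41, chosen with results known, is given beside them. Of its 56 genes with a ranked promoter peak (*Hrob* was not matched by symbol), 32 (57.1%) were lower and 5 higher at <0.1% O2, beside 38.5% and 13.8% of all promoter peaks, with a median log2 change of -0.37. At 1% O2, 20 (35.7%) were lower and 3 higher, beside 22.0% and 12.9%. The largest falls were those of *Rad17*, which loads the checkpoint clamp, *Recql*, a RecQ helicase, and *Parpbp*, a PARP1-binding protein, with log2 changes of -1.59 ± 0.15, -1.36 ± 0.14 and -1.22 ± 0.13 at <0.1% O2 (adjusted p of 2.7e-10, 6.8e-10 and 3.4e-09). *Rad17* went from 1.75 and 1.61 at 21% O2 through 0.78 and 0.81 at 1% O2 to 0.55 and 0.57 at <0.1% O2. *Swi5*, a strand exchange mediator, rose by 0.54 ± 0.10 (adjusted p = 5.5e-05) and the nuclease subunit *Ercc1* by 0.38 ± 0.11 (adjusted p = 0.0038), whereas the clamp subunit *Rad9a* had 0.36 ± 0.21 (adjusted p = 0.16).

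Other lists were read against the promoter-wide shares lower, 38.5% at <0.1% O2 and 22.0% at 1% O2. The shares higher were 13.8% and 12.9%. Of 43 DNA replication and nucleotide supply genes, 28 (65.1%) were lower and 3 higher at <0.1% O2, with a median log2 change of -0.36. At 1% O2, 21 (48.8%) were lower and 2 higher. Of 36 excision and mismatch repair genes, 16 (44.4%) were lower at <0.1% O2 and 5 (13.9%) at 1% O2, with medians of -0.26 and -0.12. At each level 4 of them were higher. Of the 9 of 10 core end-joining genes with a ranked peak, 3 (33.3%) were lower at <0.1% O2 and 2 (22.2%) at 1% O2. At each level 2 of the 9 were higher. The replication list lay above the promoter-wide shares lower at both levels. With 36 and 9 genes, the excision and mismatch list and the end-joining list are not read as different from those shares. By fold rank the picture differed at <0.1% O2, where the promoter-wide shares were 26.5% lower and 12.0% higher. Of replication genes 8 of 43 were lower and 2 higher, and of excision and mismatch genes 9 of 36 and 2. Of end-joining genes 2 of 9 were lower and 2 higher. The further HR and FA list had 17 of 56 lower and 7 higher, and the 41 genes 21 and 1. Of the 8 hypoxia-inducible genes, 3 were higher and 1 lower at <0.1% O2 by pileup, with a median log2 change of 0.29, while by fold rank 4 were lower and 0 higher, with a median of -5.36 points. No test was made between lists.

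**Figure D5:**
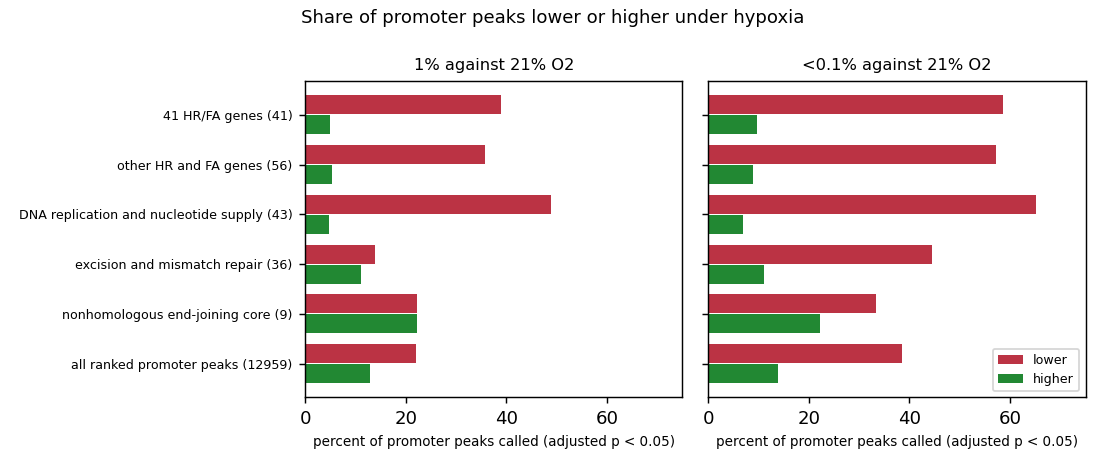
Percent of promoter peaks lower (red) or higher (green) by limma at an adjusted p below 0.05 (horizontal axes), for 5 gene lists and all ranked promoter peaks, at 1% O2 (left) and <0.1% O2 (right) against 21% O2. The number of peaks is in brackets. At <0.1% O2 the red bar is at 58.5% for the 41 genes, 65.1% for replication genes and 38.5% for all promoter peaks.

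Of the 27 members whose peak lay near no other coding gene, 13 were lower and 1 higher at 1% O2, and 16 were lower and 1 higher at <0.1% O2, with median log2 changes of -0.35 and -0.48. Of the 14 with a shared peak, 3 were lower and 1 higher at 1% O2, and 8 were lower and 3 higher at <0.1% O2, with medians of -0.00 and -0.29. The promoter-wide shares were 22.0% lower and 12.9% higher, then 38.5% and 13.8%, over shared and unshared promoters together. The difference between these members was not tested. With a change of at least 0.6 in log2 size asked for as well, 15 members were lower and 1 higher at <0.1% O2, and 8 were lower at 1% O2. Of all promoter peaks 19.5% and 4.53% passed at <0.1% O2, and 7.29% were lower at 1% O2. Leaving out each library in turn, some limma calls at each level were lost, as given gene by gene above. How many of all promoter peaks keep their call was not counted.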

How the data were processed

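Peak lists of 6 ATACseq libraries were used, mapped by the authors to mm10 with Bowtie2 2.2.5 and called per library with MACS2 2.1.1.2 (submitters' processing notes). The deposited values are a fold enrichment (a ratio) at the summit and -log10 p and q. Depth is not in the files. From fold and p the whole-number pileup and the background were recovered. Peaks were merged to a consensus, and those in all 6 libraries were ranked. Log2 of pileup over the library median was fitted with limma on 3 groups. The study's DESeq2 test on counts was not repeated, since the lists hold no counts per peak. Members, lists and tests were chosen with earlier results of these data known. All 41 members were fitted. Values per library are given for the 10 largest falls and 5 largest rises of log2 pileup at <0.1% O2 and for 12 genes named by role (*Brca1*, *Brca2*, *Palb2*, *Fanca*, *Fancd2*, *Mre11a*, *Rad50*, *Nbn*, *Rpa1*, *Atm*, *Atr* and *Chek1*). In the further HR and FA list, the 3 largest falls and 3 largest rises are named. Alternatives were other normalizations, scalings, ranks, windows and cutoffs, a GC trend, a replicate block and leaving out libraries. The nearest peak, the removal of shared promoters and the size cutoff of 0.6 were chosen after seeing the data.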

Additional observations from a re-analysis of the deposited data

Results flagged for a closer look

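The 2 hypoxia levels differed from each other, by limma's contrast of <0.1% with 1% O2, at 8 HR and FA promoters. The log2 change was -0.66 for *Fancf*, -0.55 for *Exo1*, -0.53 for *Fancm*, -0.47 for *Nbn*, -0.47 for *Fancl*, -0.45 for *Rbbp8*, -0.36 for *Wrn* and -0.30 for *Rpa3*. These are 19.5% of members, where 18.5% of promoter peaks were called. With the GC trend subtracted *Fancl* alone kept the call, and on log2 fold none of the 8 did. The peak taken for *Fancm* lies at the *Fkbp3* start, and the one over the *Fancm* start had -0.38 (adjusted p = 0.080). *Wrn* and *Rpa3* lost the call whichever hypoxic library was left out, *Nbn*, *Rbbp8* and *Exo1* without the first 1% O2 library, *Fancl* without the second, and *Rbbp8*, *Exo1* and *Fancl* without the second <0.1% O2 library.

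A second promoter peak of *Wrn*, too rare to be ranked, had a pileup of 39 and 36 in the <0.1% O2 libraries and was in no 21% O2 list. It was weak, with a fold of 2.36 and 2.3 and a -log10 q of 4.51 and 3.86. Coverage was highest in the <0.1% O2 libraries, 3.35 and 3.18, beside 2.16 and 2.36 at 21% O2. The level of this peak in the libraries without a call was not measured.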

How the results depend on the processing

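With limma at <0.1% O2, the 24 lower calls became 11 on log2 fold and 15 with the size cutoff of 0.6. The 4 higher became 0 under genome coverage, 1 on log2 fold, 1 without shared promoters and 1 with the cutoff. The median of -0.36 became -0.30 (quantile), -0.29 (loess), -0.53 (coverage), -0.20 (fold), -0.25 (GC trend) and -0.48 (no shared promoters). At 1% O2 the 16 lower became 5 (coverage), 1 (fold) and 8 (cutoff). The 2 higher became 7 (quantile), 0 (fold), 1 (nearest peak), 1 (no shared promoters) and 0 (cutoff), and the median of -0.18 became -0.14 (quantile), -0.02 (coverage), -0.10 (fold) and -0.35 (no shared promoters). Between the hypoxia levels the 8 lower became 16 (coverage), 1 (fold), 1 (GC trend), 5 (no shared promoters) and 1 (cutoff), the 0 higher became 2 (GC trend), and the median of -0.12 became -0.46 (coverage), -0.08 (fold) and -0.02 (GC trend).

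By fold rank at <0.1% O2, the 1 higher call became 2 with the GC trend subtracted and 2 at 5 points. The median of -10.8 became -8.33 (pileup ranked), -5.41 (whole list), -7.55 (GC trend) and -9.84 (500 bp window). At 1% O2 the 10 lower became 6 with whole-list ranks and 6 at 15 points. The 1 higher became 2 (pileup ranked), 2 (-log10 q ranked), 2 (whole list), 0 (GC trend) and 3 (5 points), and the median of -3.82 became -2.87 (pileup ranked) and -0.776 (whole list). The cause of these shifts was not tested.

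Signs turned for the <0.1% O2 fold ranks of *Blm* (9.08 with the pileup ranked, 4.59 with -log10 q), *Fanca* (3.85 and 1.33), *Ube2t* (5.34, pileup) and *Rad51b* (-14.7, nearest peak). They also turned for the log2 changes of *Fance* (-0.01) and *Atm* (0.03) on log2 fold and of *Wrn* (0.06) with the GC trend subtracted.

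Leaving out each library, the median log2 change of the members ran from -0.46 to -0.27 at <0.1% O2. It ran from -0.26 to -0.17 at 1% O2, and from -0.23 to -0.10 between the hypoxia levels. The median fold rank change ran from -14.8 to -10.3 points at <0.1% O2 and from -6.77 to -1.53 at 1% O2. Fold rank calls are not counted there, since 1 library against 2 meets the rule more easily. Same-numbered libraries correlated at -0.051, -0.013 and 0.008 in their deviations over the ranked peaks. Such values cannot show whether they shared a culture, a day or a batch. With the replicate block limma gave 16 lower and 2 higher at 1% O2, 24 and 4 at <0.1% O2, and 10 and 0 between the hypoxia levels. The shares of all promoter peaks were not counted with the block. Low pileups, such as 28 fragments at *Fancd2*, limit the precision.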
